A study of Mus musculus with 8 samples.

Results

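The nuclear genes for subunits of the mitochondrial respiratory chain and of the ATP synthase were followed in ribosome-bound RNA of mouse skin before and after wounding. Members were the protein-coding rows whose symbols follow the naming patterns of complexes I to V (Nduf, Sdh, Uqcr, Cox4 to Cox8 and Atp5), without assembly factors and pseudogenes. They numbered 85 of 53700 gene identifiers, with 35 in complex I, 4 in complex II, 8 in complex III, 20 in complex IV and 18 in complex V. A filter on low counts left 82 of them. The other 3, Cox7b2, Cox8c and a second identifier that bears the name Atp5o, had no count in any library.

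All mice carried AdipoqCreER, a recombinase that is expressed from the adiponectin gene and is active after tamoxifen, together with R26-NuTRAP, a reporter that adds a GFP tag to the ribosomes of recombined cells. All received tamoxifen, the uninjured mice included. The groups were skin 7 days after wounding (n = 3), skin 3 days after wounding (n = 2) and uninjured skin (n = 3). The titles shorten the time points, and the short forms were taken to mean days post wounding. The treatment protocol, which is the same in the labels of all samples, has mice of 7 to 9 weeks and gives no separate age for uninjured mice. Wounded mice were in the resting phase of the hair cycle and were given 4 full-thickness wounds each by a punch of 5 mm. RNA on GFP-tagged polysomes was captured with an antibody to GFP, and 20 ng went into each library. The series title asks how adipocytes pass to a fibroblast state in wound repair and what PDGF signalling contributes.

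Day 7 libraries held 6763290 to 9292594 counts, day 3 libraries 5308959 and 9585689, and uninjured libraries 7883909 to 17751689. The members took 3.94% to 4.71% of the counts at day 7, 8.25% and 4.60% at day 3, and 4.18% to 4.63% in uninjured skin. The labels call the sample adipocyte, and all 10 adipocyte markers passed the filter, with Adipoq at 1803, 2789 and 5177 CPM at day 7 and 4908, 5404 and 5401 CPM in uninjured libraries. CPM are counts scaled to a common library total. RNA of markers of other cell types was captured too. For fibroblast markers, recombined cells in a fibroblast state and other cells cannot be told apart as the source. Of the marker lists other than that of adipocytes, fibroblast markers had the highest sum at day 7 (6441 to 12786 CPM). Skeletal muscle markers had it in day 3 and uninjured libraries. Day 3 replicate 1 and day 7 replicate 3 stood apart from their groups for these genes, so results are given with and without them. The column names of the deposited table carry a number that is shared within each group and differs between groups, so whatever it stands for cannot be told apart from the groups. Nothing in the labels says that the libraries of a group came from separate mice, so the p-values measure the spread between libraries. In bulk RNA, fewer cells of a type and less RNA per cell cannot be told apart.

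Complexes I to IV pass electrons from NADH and succinate to oxygen, and complexes I, III and IV pump protons across the inner mitochondrial membrane. Complex V, the ATP synthase, lets the protons back through a rotating ring and makes ATP in its F1 head. Complex I, complex IV and complex III each have a catalytic core surrounded by small accessory subunits, and most of these proteins are encoded in the nucleus. Several complex IV subunits, and the c subunit of the ATP synthase, have paralogous genes. Cox6a2, Cox7a1 and Cox8b encode the isoforms typical of heart and skeletal muscle, while Cox6a1, Cox7a2 and Cox8a encode those found in most tissues. Cox7a1 and Cox8b are also used as markers of brown and beige fat.

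The regions upstream of the paralogous complex IV genes on which the results turn are shown to let a reader compare each isoform with its ubiquitous partner. Each line holds the 250 bases before the transcription start from RefSeq on GRCm38.p6, 5′ to 3′ on the strand of the gene, with CpG dinucleotides in capitals. Of the member symbols, 68 matched an entry, and Cox6a2 is not among them.
Cox7a1 (chr7:30183921-30184170, plus strand): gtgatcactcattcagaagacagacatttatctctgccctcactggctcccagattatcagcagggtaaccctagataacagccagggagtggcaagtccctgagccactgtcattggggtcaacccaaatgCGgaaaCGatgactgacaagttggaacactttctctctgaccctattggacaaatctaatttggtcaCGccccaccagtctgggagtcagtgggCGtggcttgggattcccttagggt
Cox7a2 (chr9:79759854-79760103, minus strand): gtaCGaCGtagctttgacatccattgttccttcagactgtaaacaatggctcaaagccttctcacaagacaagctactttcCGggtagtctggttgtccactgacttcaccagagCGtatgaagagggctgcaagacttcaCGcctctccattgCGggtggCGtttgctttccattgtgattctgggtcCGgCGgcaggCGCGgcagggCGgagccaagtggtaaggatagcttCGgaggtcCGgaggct
Cox8b (chr7:140900447-140900696, minus strand): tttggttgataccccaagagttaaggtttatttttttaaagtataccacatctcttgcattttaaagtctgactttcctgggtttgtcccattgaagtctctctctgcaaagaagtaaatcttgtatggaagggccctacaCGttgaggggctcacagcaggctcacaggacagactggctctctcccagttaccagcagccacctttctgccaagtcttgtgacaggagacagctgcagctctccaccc
Cox8a (chr19:7217617-7217866, minus strand): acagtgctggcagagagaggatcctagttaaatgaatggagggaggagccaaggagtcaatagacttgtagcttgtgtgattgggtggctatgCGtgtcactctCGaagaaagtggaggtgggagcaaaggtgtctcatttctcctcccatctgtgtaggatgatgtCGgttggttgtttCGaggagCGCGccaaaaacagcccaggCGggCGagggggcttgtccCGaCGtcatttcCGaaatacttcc
Cox6b2 (chr7:4753095-4753344, minus strand): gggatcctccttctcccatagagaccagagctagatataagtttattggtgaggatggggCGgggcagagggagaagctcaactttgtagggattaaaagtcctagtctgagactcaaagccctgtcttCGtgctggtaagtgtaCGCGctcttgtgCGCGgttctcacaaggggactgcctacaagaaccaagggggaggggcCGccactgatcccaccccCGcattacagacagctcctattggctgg
Cox6b1 (chr7:30626115-30626364, minus strand): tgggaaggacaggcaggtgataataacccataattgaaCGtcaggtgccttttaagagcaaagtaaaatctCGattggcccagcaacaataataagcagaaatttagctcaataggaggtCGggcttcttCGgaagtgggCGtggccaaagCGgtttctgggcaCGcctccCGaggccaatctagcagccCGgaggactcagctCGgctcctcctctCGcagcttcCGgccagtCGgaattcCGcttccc

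Of the muscle isoform genes, Cox7a1 and Cox8b had few CpG dinucleotides. The window of Cox8b held 1 and that of its partner Cox8a held 11, while that of Cox7a1 held 4 and that of Cox7a2 held 14. Cox6b2, an isoform known from testis, had 8, against 14 in its ubiquitous partner Cox6b1. The median was 14 over the 73 windows of the members and 6 over all 32851 windows. Cox8b had the lowest count of the 68 members, and Cox7a1 shared the next place with Ndufc2. Of 4 strings searched on both strands, none of which contains another, CCGGAAG, the core bound by GABP and other ETS factors, was present in 12 of the 68 members (17.6%) and in 7.83% of 27025 genes. The string TGCGCA, the repeated core of the site of nuclear respiratory factor NRF1, was present in 14 members (20.6%) and in 7.36% of all genes. The myogenic E-box CAGCTG and the TATA string TATAAA were each present in 6 members (8.82%), against 14.7% and 14.3% of all genes. CCGGAAG and TGCGCA each hold a CpG dinucleotide, in which the members' windows were richer, while CAGCTG and TATAAA hold none. The part of CpG content in these shares was not tested. Among the windows printed, Cox6b1 held CCGGAAG once on the opposite strand and Cox8b held CAGCTG once. A match is a run of letters and no evidence of binding.

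At day 7, Cox6a2 and Cox7a1 fell and Cox6b2 rose against uninjured skin. No other member passed the test, although 74 of 82 had a log2 fold change below 0. These 3 are 3.66% of the members tested, and 7.67% of all 18656 genes were called in the same comparison with edgeR's quasi-likelihood test at an adjusted p of 0.05. By direction, 2 members were lower, against 1.77% of all genes, and 1 was higher, against 5.90%. At an unadjusted p of 0.05, 6 members (7.32%) differed and 26.7% of all genes did. The median log2 fold change was -0.31 over the members and 0.04 over all genes, and 8941 of the 18656 genes were below 0. In the heat map of all members, Cox6a2, Cox7a1 and Cox6b2 stood out in all 3 day 7 libraries, while most other members were lower mainly in day 7 replicates 1 and 2.

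**Figure D1:**
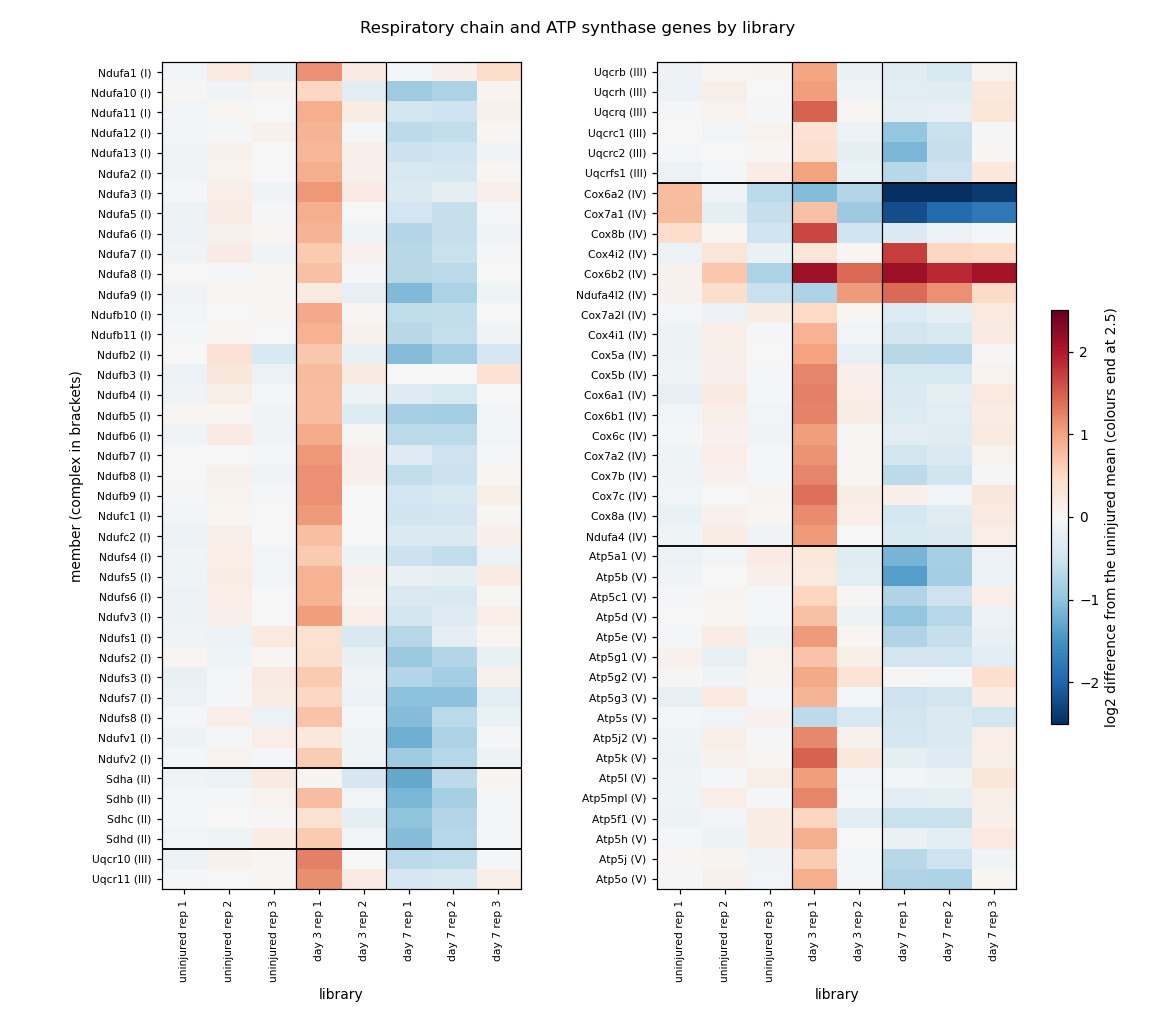
Each row is 1 of the 82 members and each column 1 library, and colour gives the log2 difference in CPM from the mean of the uninjured libraries, with complexes separated by horizontal lines. Cox6a2 and Cox7a1 are dark blue and Cox6b2 is dark red in all 3 day 7 libraries, and nearly all other members are red in day 3 replicate 1.

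Cox6a2 (deposited coordinates chromosome 7, 127804607 to 127805559) encodes the muscle isoform of subunit VIa. The genome build of the deposited coordinates is not settled, and they are not to be set against those of the promoter windows. Cox6a2 was at 29.8, 51.2 and 61.6 CPM in day 7 libraries, against 552, 302 and 203 CPM in uninjured libraries. Every day 7 library was below every uninjured library. The log2 fold change was -2.89 ± 0.40 (SE), or 0.135 times the uninjured level, with an edgeR adjusted p of 0.0041. The call held in every fit without 1 library, where the adjusted p was at most 0.0253. Its ubiquitous partner Cox6a1 was at 1123, 1238 and 1706 CPM at day 7 and 1263, 1693 and 1420 CPM in uninjured skin, and these groups overlapped (log2 fold change -0.11 ± 0.34 (SE), edgeR adjusted p = 0.861). Per kilobase of the deposited gene length, Cox6a2 made up 2.66%, 4.10% and 3.59% of the pair at day 7 and 31.1%, 15.6% and 12.8% in uninjured libraries.

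Cox7a1 (deposited coordinates chromosome 7, 29883569 to 29885503) encodes the muscle isoform of subunit VIIa. It was at 14.3, 17.5 and 19.2 CPM at day 7 and 116, 57.1 and 44.9 CPM in uninjured libraries. These groups did not overlap either. The log2 fold change was -2.09 ± 0.44 (SE), 0.234 times the uninjured level, with an edgeR adjusted p of 0.0209. The edgeR adjusted p was 0.0819, 0.0878 or 0.0813 without uninjured replicate 1, day 7 replicate 1 or day 7 replicate 2. That call thus rested on each of these libraries. The share of all genes called was also lower in these fits, at 1.69%, 2.19% and 2.15%, against 7.67% with all libraries. Cox7a2, the partner, was at 515, 554 and 756 CPM at day 7 and 659, 791 and 685 CPM in uninjured skin, with an edgeR adjusted p of 0.66.

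Cox8b, the muscle isoform of subunit VIII, did not pass the test. It was at 235, 270.1 and 296 CPM at day 7 and 408, 312 and 214 CPM in uninjured libraries, with a log2 fold change of -0.22 ± 0.45 (SE) and an edgeR adjusted p of 0.775. The day 7 values lay within the uninjured range. Cox8a, which had the highest uninjured level per kilobase of all 82 members (2684 ± 255 CPM per kilobase, SD, n = 3), was at 1219, 1334 and 1947 CPM at day 7 and 1481, 1778 and 1725 CPM in uninjured libraries (edgeR adjusted p = 0.799).

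The ratio of isoform to partner within a library does not depend on the scaling of libraries. The log2 ratio of Cox6a2 to Cox6a1 counts averaged -4.87 ± 0.33 at day 7 and -2.16 ± 0.86 in uninjured skin (SD, n = 3 each), a difference of -2.71. That of Cox7a1 to Cox7a2 averaged -5.15 ± 0.16 at day 7 and -3.41 ± 0.78 in uninjured skin, a difference of -1.74. In both pairs all 3 day 7 ratios were below all 3 uninjured ratios. The ratio of Cox8b to Cox8a averaged -2.47 ± 0.22 at day 7 and -2.46 ± 0.58 in uninjured skin, a difference of -0.0045. A two-sided exact permutation test gave p = 0.1 for Cox6a2 and for Cox7a1 and p = 1 for Cox8b, or 0.15, 0.15 and 1 after Benjamini-Hochberg adjustment over the 3 pairs. With 3 libraries against 3, p cannot go below 0.1, so these tests could not reach 0.05.

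RNA of skeletal muscle moved the same way as Cox6a2 and Cox7a1. The summed CPM of 17 tested muscle markers was 1024 to 1874 at day 7 and 5806 to 12324 in uninjured libraries, and 14 of the 17 were lower by edgeR. Tnni2, a fast troponin, was at 88.9, 157 and 137 CPM at day 7 and 1394, 898 and 591 CPM in uninjured skin. Uninjured replicate 1, which had the most muscle RNA, also had the highest Cox6a2, Cox7a1 and Cox8b of the uninjured libraries. The part of muscle RNA in these changes was not tested. Of 9 brown and beige fat markers tested, 0 were called by edgeR and 4 had a log2 fold change below 0. Their summed CPM was 55.9 to 64.7 at day 7 and 64.7 to 108 in uninjured libraries, and Ucp1 had too few reads to pass the filter.

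**Figure D2:**
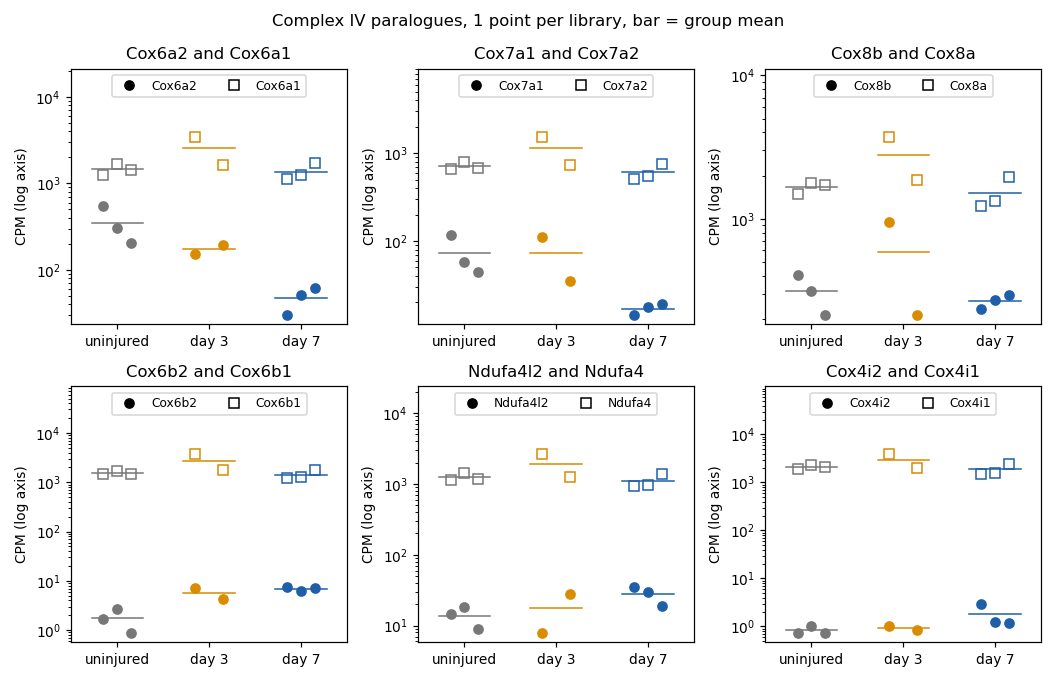
Each panel gives the CPM of a complex IV isoform (filled circles) and of its ubiquitous partner (open squares) on a log axis, 1 point per library, with bars at the group means. Cox6a2 and Cox7a1 are lowest in the 3 day 7 libraries while their partners overlap between groups, and Cox6b2 is higher at day 7 than in uninjured skin at a level far below that of Cox6b1.

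Cox6b2, Ndufa4l2 and Cox4i2, which are not the main forms of their subunits in most tissues, had higher values at day 7, at low levels, and Cox6b2 passed the test. Cox6b2 (deposited coordinates chromosome 7, 4754791 to 4756093) was at 7.36, 6.16 and 7.07 CPM at day 7, from 65, 66 and 59 reads, and at 1.71, 2.63 and 0.867 CPM in uninjured libraries, from 14, 43 and 6 reads. The groups did not overlap, the log2 fold change was 1.93 ± 0.47 (SE) and the edgeR adjusted p was 0.0331. Its call rested on single libraries: the edgeR adjusted p was between 0.0902 and 0.115 without uninjured replicate 1, uninjured replicate 3, day 7 replicate 1 or day 7 replicate 2. Those fits called between 1.69% and 2.51% of all genes, against 7.67% with all libraries. Per kilobase it was 0.254% to 0.385% of its pair with Cox6b1 at day 7 and 0.0375% to 0.0979% in uninjured skin. Cox6b1 was at 1216, 1278 and 1772 CPM at day 7 and 1472, 1716 and 1475 CPM in uninjured libraries (edgeR adjusted p = 0.825), and its groups overlapped.

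Ndufa4l2, a hypoxia-responsive paralogue of the complex IV subunit Ndufa4, was at 35.5, 29.7 and 18.7 CPM at day 7 and 14.4, 18.1 and 9.1 CPM in uninjured libraries. All day 7 values were above all uninjured values, but the edgeR adjusted p was 0.171. Ndufa4 itself was at 948, 964 and 1403 CPM at day 7 and 1152, 1422 and 1174 CPM in uninjured skin (edgeR adjusted p = 0.753). Cox4i2, an isoform of subunit IV known from lung, had the lowest uninjured level per kilobase of complex IV (1.06 ± 0.23 CPM per kilobase, SD, n = 3). It was at 2.94, 1.21 and 1.2 CPM at day 7 from 26, 13 and 10 reads, and at 0.732, 1.04 and 0.722 CPM in uninjured skin from 6, 17 and 5 reads, with an edgeR adjusted p of 0.284. Cox4i1, the ubiquitous isoform, was at 1528, 1596 and 2458 CPM at day 7 and 1919, 2350 and 2052 CPM in uninjured libraries, with overlap. Cox4i2, Cox6b2 and Ndufa4l2 were the only members whose day 7 values all lay above the uninjured ones, 3.66% of members, against 16.7% of all genes. Markers of endothelium and macrophages were higher at day 7 too, with 6 of 8 and 4 of 8 called by edgeR. Endothelial markers summed to 125 to 463 CPM at day 7 and 72.9 to 164 CPM in uninjured libraries, and macrophage markers to 420.1 to 901 CPM at day 7 and 94.9 to 198 CPM in uninjured libraries. The median log2 difference of the endothelial markers was 2.78, 2.87 and 0.97 in day 7 replicates 1, 2 and 3. Markers of macrophages, fibroblasts, keratinocytes and luminal epithelium also had their lowest day 7 median in replicate 3, at 1.36, 2.35, -0.64 and 6.25. Ndufa4l2 was likewise lowest in replicate 3, and Cox6b2 was not. In day 3 replicates 1 and 2 the endothelial median was 1.49 and 1.89. Ndufa4l2 was at 7.81 CPM there in replicate 1, below every uninjured library, and at 28.1 CPM in replicate 2. The part of these cell types in the values of the 3 genes was not tested.

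Of the members, 19 (23.2%) had all day 7 values below all uninjured values, and 13.5% of all genes did. They were 4 of 7 nuclear core subunits and 6 of 28 accessory subunits of complex I, 1 subunit of complex II, the isoforms Cox6a2 and Cox7a1, and 6 genes of complex V. None of the 11 ubiquitous complex IV subunits and none of the 8 complex III subunits was among them. The medians at day 7 differed between subunit classes. The median log2 fold change was -0.58 for the core of complex I and -0.35 for its accessory subunits, and -0.48 for the core and iron-sulfur subunits of complex III and -0.19 for its accessory subunits. In complex V the F1 head had -0.56, the peripheral stalk -0.36, the c-ring -0.24 and the small membrane subunits -0.12. Complex II had -0.54 and the ubiquitous complex IV subunits -0.18. These medians are over different genes in the same libraries, no member of these classes passed the test, and classes also differ in coding length, as described further on.

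**Figure D3:**
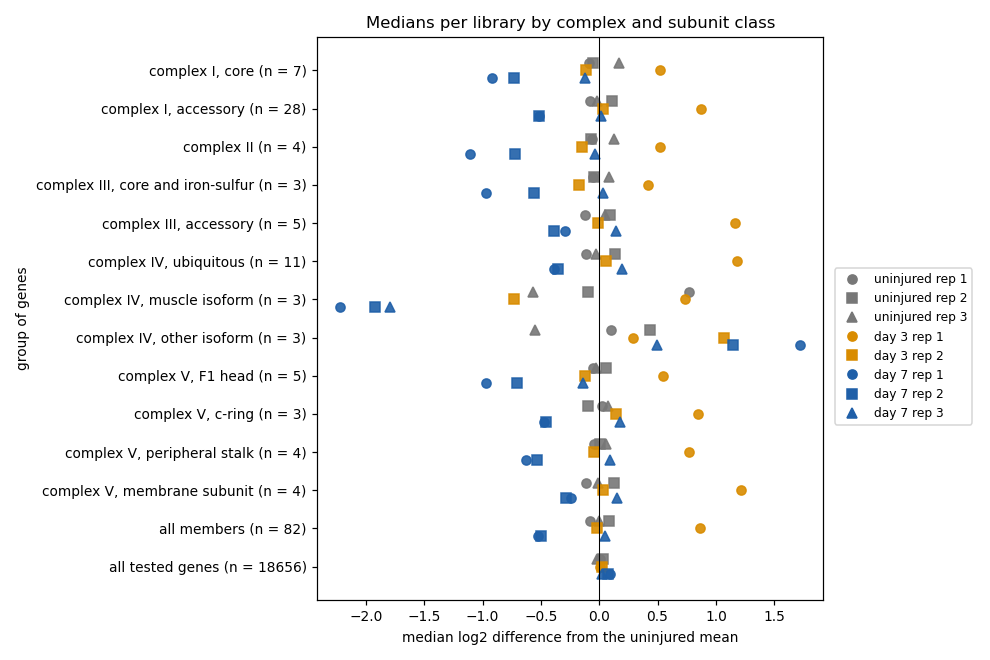
Each point is the median log2 difference from the uninjured mean over the genes of 1 class in 1 library, with the number of genes in brackets and classes of 1 gene, such as Atp5s, not drawn. Day 7 replicates 1 and 2 lie left of 0 in every class but the low-level isoforms of complex IV, day 7 replicate 3 lies between -0.14 and 0.19 in the classes drawn apart from the muscle isoforms and those low-level isoforms, and day 3 replicate 1 lies right of 0 in every class drawn.

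In complex I, which takes electrons from NADH, Ndufb2 had the lowest fold change. This accessory membrane subunit was at 84.2, 97.8 and 132 CPM at day 7 and 181, 229.7 and 137 CPM in uninjured libraries, without overlap, and its log2 fold change of -0.81 ± 0.29 (SE) had an edgeR adjusted p of 0.114. Ndufs7, the core subunit with the last iron-sulfur cluster before ubiquinone, was at 273, 274 and 459 CPM at day 7 and 504, 542 and 629.7 CPM in uninjured skin, again without overlap (edgeR adjusted p = 0.135). At the other end, the accessory subunit Ndufa1 was at 561, 623 and 782 CPM at day 7 and 544, 671 and 505 CPM in uninjured skin, with a log2 fold change of 0.19 ± 0.29 (SE). The level per kilobase was highest for the accessory subunit Ndufa2 and lowest for Ndufs1, the largest core subunit. Ndufa2 was at 703, 695 and 957 CPM at day 7 and 873, 983 and 928 CPM in uninjured skin, and Ndufs1 at 89.9, 125 and 154 CPM at day 7 and 139.7, 133 and 175 CPM in uninjured skin. Both overlapped between groups. Uninjured means per kilobase were 1622 CPM for Ndufa2 and 18.5 CPM for Ndufs1, whose deposited length of 8086 bases adds up every annotated exon and lowers its value per kilobase.

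Complex II, succinate dehydrogenase, is the only complex encoded wholly in the nucleus, and its 4 genes had similar fold changes. Sdha, the flavoprotein, was at 285, 435 and 717 CPM at day 7 and 648, 624 and 801 CPM in uninjured skin. Sdhb, the iron-sulfur subunit, was at 274, 338 and 593 CPM at day 7 and 585, 592 and 639 CPM in uninjured skin. The membrane anchors were at 221, 268 and 430.2 CPM (Sdhc) and 235, 302 and 482 CPM (Sdhd) at day 7, and at 431, 448 and 449 CPM (Sdhc) and 469, 461 and 561 CPM (Sdhd) in uninjured skin. In all 4 genes, replicates 1 and 2 of day 7 were below every uninjured library and replicate 3 was near or within the uninjured range. The log2 fold changes lay between -0.59 (Sdhb) and -0.53 (Sdha), with edgeR adjusted p from 0.257 (Sdhc) to 0.322 (Sdha). Without day 7 replicate 3, edgeR called all 4 lower, with log2 fold changes from -0.98 (Sdhb) to -0.86 (Sdhc), in a fit that called 7.79% of all genes lower, against 1.77% with all libraries.

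In complex III, which passes electrons from ubiquinol to cytochrome c, the core protein Uqcrc2 had both the lowest fold change and the lowest level per kilobase. It was at 82.9, 123 and 188 CPM at day 7 and 177, 186 and 189 CPM in uninjured skin, with a log2 fold change of -0.49 ± 0.30 (SE) and an edgeR adjusted p of 0.31. Uqcrq, a small accessory subunit, was at 1008, 1012 and 1438 CPM at day 7 and 1127, 1248 and 1146 CPM in uninjured skin, a log2 fold change of -0.03 ± 0.36 (SE) whose sign changed with the scaling. Uqcr10, another small subunit and the most abundant per kilobase, was at 723, 745 and 1139 CPM at day 7 and 1043, 1244 and 1203 CPM in uninjured skin, with overlap (edgeR adjusted p = 0.452).

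In complex V, the catalytic beta subunit Atp5b had the lowest fold change. It was at 833, 1201 and 1972 CPM at day 7 and 2009, 2139 and 2358 CPM in uninjured skin. The groups did not overlap, but the spread within day 7 was wide, and the log2 fold change of -0.70 ± 0.35 (SE) had an edgeR adjusted p of 0.218. Atp5k, the e subunit of the membrane part and the most abundant per kilobase, was at 611, 571 and 794 CPM at day 7 and 651, 768 and 728 CPM in uninjured skin. Atp5s, coupling factor B, had the lowest level per kilobase of the complex and was at 19.9, 21.4 and 20.1 CPM at day 7 and 26.7, 26.2 and 29.9 CPM in uninjured libraries. Atp5s was lower in every day 7 library, day 7 replicate 3 included, with a log2 fold change of -0.43 ± 0.21 (SE) and an edgeR adjusted p of 0.214.

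Atp5g1, Atp5g2 and Atp5g3 encode the same mature c subunit, which forms the rotating ring. Atp5g3 supplied 89.4% to 91.7% of their summed level per kilobase at day 7 and 89.5% to 93.1% in uninjured skin. These shares depend on the deposited lengths, which were 4912 bases for Atp5g1, 1675 for Atp5g2 and 2181 for Atp5g3. The long length of Atp5g1 lowers its share. Atp5g3 was at 1081, 1125 and 1748 CPM at day 7 and 1340, 1820 and 1517 CPM in uninjured skin. Atp5g1 was at 130.0, 130.2 and 148 CPM at day 7 and 196, 158 and 191 CPM in uninjured skin, with no overlap (edgeR adjusted p = 0.254). Atp5g2 was at 54.3, 51.5 and 71.6 CPM at day 7 and 54.2, 49.9 and 56 CPM in uninjured skin, a log2 fold change of 0.15 ± 0.23 (SE). The composition of the c-ring transcripts per kilobase thus varied within a few percentage points in all libraries. The counting of reads that match several genes is not described in the labels or file headers. Values of these paralogous genes, and of members with processed pseudogenes such as Atp5k, Cox6c and Uqcrh, are therefore uncertain.

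Day 7 replicate 3 lay close to uninjured skin for most members. Over the 82 members, replicate 1 had a median log2 difference from the uninjured mean of -0.52, replicate 2 of -0.50 and replicate 3 of 0.05, while uninjured libraries lay between -0.08 and 0.08. Cox6a2, Cox7a1 and Cox6b2 were among the exceptions, with replicate 3 on the side of the other day 7 libraries. Without day 7 replicate 3, edgeR called 17 members (16 lower, 1 higher), or 20.7%, against 22.0% of all genes, and the lower calls were 19.5% of members against 7.79% of all genes. The 16 lower calls were 7 in complex I, all 4 in complex II, Uqcrc2 in complex III, Cox6a2 and Cox7a1 in complex IV, and Atp5a1 and Atp5b in complex V. Without both day 7 replicate 3 and day 3 replicate 1, 33 members were called (31 lower, 2 higher), or 40.2%, against 22.1% of all genes, and the lower calls were 37.8% of members, against 7.89% of all genes. Adipocyte markers had medians of -1.11, -0.85 and -0.15 in day 7 replicates 1, 2 and 3, and fibroblast markers 2.91, 3.48 and 2.35. Their part in the difference between these libraries was not tested.

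Coding length moved with these values. Among members with coding sequences of up to 300 bases the median log2 difference was -0.37 in day 7 replicate 1, and among the 4 members over 1500 bases it was -1.21. Spearman's rho between coding length and that difference was -0.57 in day 7 replicate 1 and -0.51 in replicate 2, over 82 members of the same library, as a description. Over 14266 tested genes with a coding length rho was positive in these libraries (0.26 and 0.21), but the relation was not the same at all lengths. From the bin up to 300 bases to that of 450 to 600, the median of all genes fell too. It went from -0.11 to -0.36 in replicate 1 and from -0.04 to -0.18 in replicate 2. Over 1500 bases the medians of all genes were 0.58 and 0.35. Among the members rho was also -0.29 in day 7 replicate 3, and -0.66 and -0.49 in the day 3 libraries. It was 0.02, -0.44 and 0.46 in the uninjured libraries, so rho of similar size was present without wounding. Uninjured libraries are set against their own mean, so opposite signs among them are built in. Their member medians moved less with length than in day 7 replicates 1 and 2. From up to 300 bases to over 1500 they went from 0.11 to -0.10 in uninjured replicate 2 and from -0.05 to 0.22 in replicate 3. Core subunits are mostly long and accessory subunits mostly short, so class and coding length cannot be told apart among the members.

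**Figure D4:**
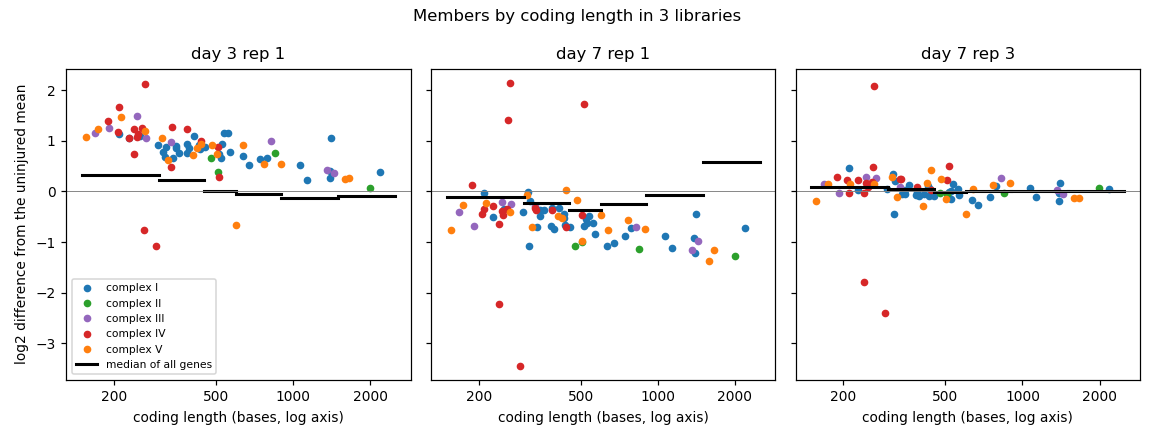
Each point is 1 member, placed by coding length in bases on a log axis and by its log2 difference from the uninjured mean, in 3 libraries, with black bars at the median of all tested genes by length bin. In day 3 replicate 1 the median falls off from 1.15 in the shortest bin of members to 0.26 in the longest, long members lie lowest in day 7 replicate 1, and in day 7 replicate 3 the medians of members by bin lie between -0.04 and 0.15.

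At day 3 against uninjured skin, no member passed edgeR's test, and 2 of 18656 genes did (0.0107%). At an unadjusted p of 0.05, 12 members (14.6%) differed, against 13.0% of all genes. DESeq2 called 0 members and 2.30% of all genes. The median log2 fold change was 0.51 over the members, but it rested on replicate 1: without that library it was -0.02. The median difference from the uninjured mean was 0.87 in day 3 replicate 1 and -0.02 in replicate 2, and 16 members (19.5%) had both values above all uninjured ones, against 16.9% of all genes. After Cox6b2, Atp5k had the highest log2 fold change, 0.99, with 1985 and 856 CPM at day 3 and 651, 768 and 728 CPM in uninjured libraries. In replicate 1 the shift was largest for short members, with a median of 1.15 up to 300 coding bases and 0.26 over 1500, while all genes had medians of 0.33 and -0.09 in these bins. That library also held 1542 CPM of luminal epithelial markers, against 20.96 CPM in the other day 3 library. Those markers summed to 549 to 1194 CPM at day 7 and 11.7 to 26.5 CPM in uninjured libraries, and their part in the members' values was not tested.

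Cox6a2 was lower in both day 3 libraries than in all uninjured ones, at 153 and 194 CPM at day 3 and 552, 302 and 203 CPM in uninjured skin. Its log2 fold change of -1.02 ± 0.43 (SE) had an edgeR adjusted p of 0.352. With Atp5s it was 1 of 2 members below all uninjured values (2.44%), against 17.2% of all genes. Cox7a1 was at 111 and 35.4 CPM at day 3 and Cox8b at 956 and 212 CPM, so for both genes replicate 1 was near or above the highest uninjured library and replicate 2 below the lowest. Muscle markers summed to 3608 and 5922 CPM in day 3 replicates 1 and 2, and the tested brown and beige fat markers to 110 and 60.3 CPM. In replicate 1, Ucp1 was at 5.55 CPM, Cidea at 37.2 CPM and Otop1 at 17.1 CPM. In all other libraries they were at most 0.24, 19.5 and 6.35 CPM. Pdk4 was also above every uninjured library in replicate 1, at 44.4 CPM, and Dio2 was within the uninjured range. Other markers of the list went the other way. Elovl3 (4.11 CPM), Ppargc1a (3.085 CPM), Zic1 (0.617 CPM), Tbx1 (0.411 CPM) and Tmem26 (0 CPM) were below every uninjured library in replicate 1. Of 9 such markers tested, 7 had a log2 fold change below 0 at day 3, and edgeR called 0. The part of muscle or fat RNA in the values of Cox7a1 and Cox8b was not tested. Cox6b2 was at 7.2 and 4.38 CPM at day 3, above all uninjured values, with a log2 fold change of 1.67 ± 0.51 (SE) and an edgeR adjusted p of 0.242.

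At day 7 against day 3, no member passed edgeR's test, and 16 of 18656 genes did (0.0858%, or 0.0643% higher and 0.0214% lower). DESeq2 called 3 members lower (3.66%), Cox6a2, Cox7a1 and Atp5e, against 0.418% of all genes lower and 1.21% called in either direction. At an unadjusted p of 0.05, 51 members (62.2%) differed, against 11.0% of all genes. In 29 members (35.4%) all day 7 values were below both day 3 values, against 11.4% of all genes. The median log2 fold change was -0.83 over the members and 0.08 over all genes, and it was -0.32 without day 3 replicate 1. Cox7a1 had the lowest log2 fold change, -2.10 ± 0.48 (SE) with an edgeR adjusted p of 0.196, followed by Cox6a2 at -1.87 ± 0.41 (SE) with 0.172. The day 3 libraries entered both this comparison and that of day 3 against uninjured skin, so the high replicate 1 moved both.

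Other nuclear genes of the mitochondrion had medians below 0 at day 7 too, with few calls. Of 44 tested assembly factors of the complexes, 42 had a log2 fold change below 0, the median was -0.39 and edgeR called 0. The 24 genes of the mitochondrial ribosome had a median of -0.40, the 18 genes of the TCA cycle -0.49 and the 10 genes of cristae and MICOS -0.36, with 0 called in each. Of 13 genes for coenzyme Q synthesis and binding, edgeR called 2 lower. Coq8a, an atypical kinase needed for making coenzyme Q, was at 29.3, 63.4 and 112 CPM at day 7 and 320, 162 and 190 CPM in uninjured skin (log2 fold change -1.72, adjusted p = 0.0495). Coq10a, which binds coenzyme Q, was at 25.5, 36.5 and 51.7 CPM at day 7 and 144, 66.9 and 89.5 CPM in uninjured skin (log2 fold change -1.40, edgeR adjusted p = 0.028). Both Coq8a and Coq10a were highest in uninjured replicate 1, the library with the most muscle RNA. The part of muscle RNA in their values was not tested. Regulators of mitochondrial biogenesis had a median of -0.17 over 16 genes and 0 calls.

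Subunit genes of the mitochondrial genome lay on the other side of 0. Of 12 tested, all had a log2 fold change above 0, the median was 0.78, and edgeR called 2 higher. Their median log2 difference from the uninjured mean was 0.71, 1.24 and 0.17 in day 7 replicates 1, 2 and 3. It was -0.02, 0.22 and -0.23 in the uninjured libraries, so day 7 replicate 3 lay within their range. The complex IV subunit mt-Co1 was at 129, 179 and 121 CPM at day 7 and 68.2, 83.2 and 60.4 CPM in uninjured skin (adjusted p = 0.0252). The complex IV subunit mt-Co2 was at 28.98, 37.98 and 17.6 CPM at day 7 and 9.27, 13.4 and 7.22 CPM in uninjured skin (edgeR adjusted p = 0.0239). The 2 genomes encode parts of the same enzymes, and mitochondrial transcripts are made and translated inside the organelle, outside the tagged cytoplasmic ribosomes. They reached 454 to 1065 summed CPM over all libraries, against 31955 to 90014 summed CPM for the nuclear subunits.

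**Figure D5:**
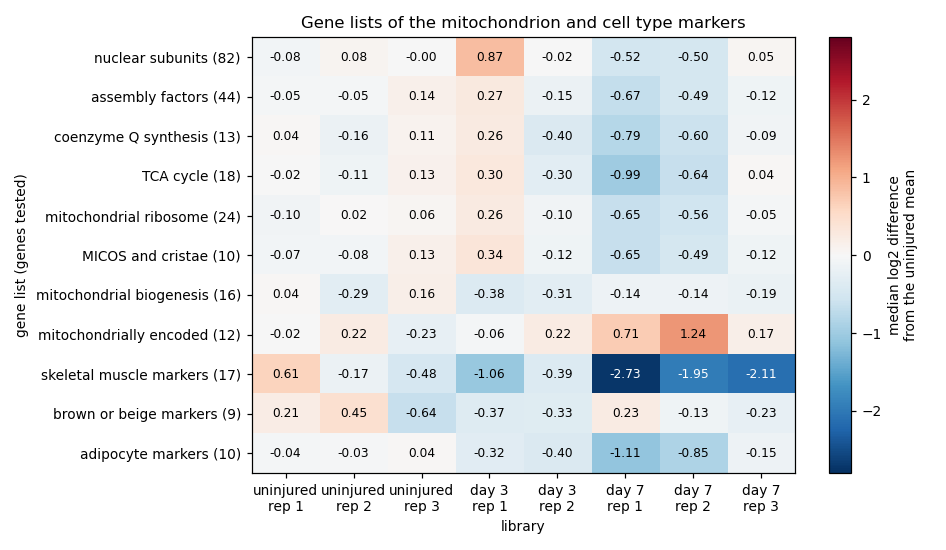
Each cell gives the median log2 difference from the uninjured mean over the tested genes of a list (number in brackets) in 1 library. The nuclear subunits and the other nuclear mitochondrial lists are below 0 in day 7 replicates 1 and 2 and nearer 0 in replicate 3, except that the regulators of biogenesis are at -0.14, -0.14 and -0.19 in the 3, the mitochondrially encoded genes are above 0 in all 3, and the muscle markers are lowest.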

How the data were processed

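Raw read counts per gene were used as deposited by the authors, with each library in its own column and no normalization. The headers of the deposited table name featureCounts 2.0.8 as the counter. Per the submitters' processing notes, STAR 2.7.10b, DESeq2 and mm10 were also used. How strand and multi-matching reads were handled is not given in the sources used here. Of 53700 identifiers, 52093 matched a symbol in a list of gene names, and gene types were taken from GENCODE M21. Only 1543 of the 52147 identifiers in that annotation had the same start there, so the build of the deposited coordinates is not settled.

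The tests were run in edgeR 4.0.16 (R 4.3.3) after TMM scaling, on the 18656 genes that filterByExpr kept with min.count 10. The quasi-likelihood F test was fitted over all 8 libraries with 1 mean per group (5 residual degrees of freedom), two-sided, with Benjamini-Hochberg adjustment over all genes. The shallowest library, with 5308959 counts, gave the least precision for low genes. CPM are TMM-normalised. Log2 differences per library used a pseudocount of 0.1 CPM and ratios of counts one of 0.5. Per-kilobase levels used the deposited gene length and coding lengths GENCODE M21. The procedure was tested on simulated data. No pair of replicate libraries differed by as little as sampling noise.

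Members and lists were chosen with earlier results of these data known. Values per library are given for members called in a comparison, for paralogue sets, and in each complex for the extremes of uninjured level per kilobase and of fold change at day 7. Ndufs7 and the values at day 3 were added after their values were seen. Other genes named are called members of lists with at most 5 calls, or markers with the smallest adjusted p, and Adipoq as the gene that drives the recombinase. The brown and beige fat markers at day 3 were named after their values were seen. Left out were 12 rows that match the patterns but are pseudogenes or non-coding, Ndufb1-ps among them. Alternatives were DESeq2 1.42.0, other scalings and filters, only the 2 groups compared, a replicate block, and leaving out libraries. Replicate numbers were not taken as pairs.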

Additional observations from a re-analysis of the deposited data

How the results depend on the processing

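Cox6a2, Cox7a1 and Cox6b2 were the members called at day 7 against uninjured skin with DESeq2 size factors, upper-quartile scaling, a minimum count of 30, only the 2 groups compared, DESeq2's Wald test and the replicate block. With no filter on low counts 5 members were called (6.1%, against 8.16% of all genes), with Ndufa4l2 and Ndufb2 added. Leaving out 1 library gave between 1 and 17 called members: 1 without uninjured replicate 1, day 7 replicate 1 or day 7 replicate 2, 2 without uninjured replicate 3, and 17 without day 7 replicate 3. The share of all genes called moved too, from 7.67% with all libraries. It was 1.69%, 2.19% and 2.15% without uninjured replicate 1, day 7 replicate 1 and day 7 replicate 2. Without uninjured replicate 3 it was 2.51%, and without day 7 replicate 3 it was 22.0%. Without day 3 replicate 1 and day 7 replicate 3 together, a setting chosen after seeing the data, 33 were called. The cause was not tested. At day 3 against uninjured skin the count was 0 under every alternative, the replicate block included. At day 7 against day 3 it was 4 with no filter (4.88%, against 1.48% of all genes), 3 with DESeq2, 0 to 1 over the fits without 1 library, and 0 with the replicate block. Upper-quartile scaling moved the median of all genes at day 3 against uninjured to 0.13, against 0.02 with TMM, and that of the members to 0.64, against 0.51. The fold changes of Cox6a2, Cox7a1 and Cox6b2 at day 7 kept their sign in every fit run. Values near 0 changed sign: over the fits without 1 library, Cox8b ranged from -0.4317 to 0.0116, Cox6a1 from -0.3043 to 0.0155 (0.0083 without day 7 replicate 1), Atp5g2 from -0.0103 to 0.2567 and Uqcrq from -0.2158 to 0.0757. Atp5g2 was -0.0321 without day 3 replicate 1 and day 7 replicate 3 together. Uqcrq was 0.0031 with upper-quartile scaling, 0.0083 at a minimum count of 30, 0.0054 with only the 2 groups, and 0.0204, 0.0558 and 0.0757 without uninjured replicate 2, day 7 replicate 1 and day 7 replicate 2. The log2 ratio difference of Cox8b to Cox8a ranged from -0.2804 to 0.2956 over the fits without 1 library, with 0.2956 without uninjured replicate 1 and 0.1222 without day 7 replicate 3. That of Cox6a2 to Cox6a1 ranged from -3.03 to -2.23, and that of Cox7a1 to Cox7a2 from -1.9995 to -1.2883. With the replicate numbers as a block, an exact sign test of those 2 ratios gave p = 0.25, the smallest it can give. Same-numbered libraries had deviations correlated between -0.064 and 0.193, so the numbers were not taken as pairs.

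With 3, 2 and 3 libraries, the calls at day 7 other than that of Cox6a2 depend on single libraries. The share of all genes called depends on them too. Low genes such as Cox4i2 rest on 5 to 26 reads per library. The fit without a library assumes that the spread pooled from the others holds for it.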
